A study of Mus musculus with 6 samples.

Results

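The beta-defensin genes of the mouse were followed here in RNA sequencing of inflamed prostate. The family was taken as every symbol of the count table made of Defb and a number, which gave 32 of 18697 genes. Of these, 24 had at least 1 read in 1 of the 6 libraries and 8 had none. The libraries came from prostates of mice with experimental autoimmune prostatitis (EAP), a model in which immunity raised to antigens of the prostate causes chronic inflammation, so both groups carried the disease model. One group of 3 libraries came from mice given VUF11207, which activates the atypical chemokine receptor CXCR7 (gene Ackr3), intraperitoneally at 5 mg per kg per day for 14 days. The comparison group of 3 came from mice given an equal amount of the solvent DMSO for the same time. Strain, age and the mouse behind each library are not stated in the labels, so replicate spread may be technical in part, and p-values measure the spread between these libraries only. The DMSO libraries are replicates 2 and 3 and a library without a replicate number, called the unnumbered DMSO library.

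Beta-defensins are small cationic peptides secreted mainly by epithelia. They share a fold held by 3 disulfide bonds between 6 cysteines, kill bacteria by disturbing their membranes, and some attract immune cells through the chemokine receptor CCR6. In the male tract many members are made in the epididymis under androgen control and coat sperm, while Defb50, also listed as prostate beta-defensin, is the member associated with the prostate. In mice, deletion of the chromosome 8 stretch that holds Defb1, Defb50, Defb2, Defb10 and their neighbours impairs sperm function.

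The coding sequence of the cysteine-rich end is shown for 5 members, because they differ in level or in pattern across the libraries. Each runs 5′ to 3′ on the coding strand, from GENCODE M21 transcripts of mm10, with the cysteine codons in capitals.
Defb50: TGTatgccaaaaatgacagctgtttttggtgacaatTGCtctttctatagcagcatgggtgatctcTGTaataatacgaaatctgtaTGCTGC
Defb1: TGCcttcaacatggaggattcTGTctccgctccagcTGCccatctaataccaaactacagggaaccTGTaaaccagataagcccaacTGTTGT
Defb10: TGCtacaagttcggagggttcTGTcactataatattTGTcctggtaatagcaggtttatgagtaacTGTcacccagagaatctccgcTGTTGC
Defb29: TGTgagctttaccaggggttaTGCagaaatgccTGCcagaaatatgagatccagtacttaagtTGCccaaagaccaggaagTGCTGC
Defb42: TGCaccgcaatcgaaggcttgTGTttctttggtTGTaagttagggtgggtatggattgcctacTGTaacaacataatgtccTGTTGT
The six-cysteine arrangement was sought in the 24 members with reads and was found in 23. The exception was Defb50, the most abundant member. Its annotated coding sequence of 73 codons has 6 cysteine codons, at codons 5, 34, 46, 56, 63 and 64 counted from the start codon, so the stretch shown holds 5 of them. In the other 23 members the gap before the last 3 cysteines is 9 to 13 codons, and the gap after the first cysteine is 6 codons in 20. Between these cysteine-rich ends, Defb1 and Defb42 were identical at 22.6% of alignment columns, gaps included. For Defb1 and Defb2, and likewise for Defb2 and Defb10, the value was 41.9%. Defb26 and Defb30, which lie on different chromosomes, reached 46.7%.

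The genes lie in 3 regions of the genome. In mm10, chromosome 8 holds 16 members, chromosome 2 holds 11 (152459055 to 152623053) and chromosome 14 holds 5 (62977524 to 63058149). On chromosome 8, the 8 members from Defb1 to Defb13 (21776599 to 21948850) all had reads, and 4 of them passed the count filter for testing. The 7 members from Defb40 to Defb3 (18974940 to 19295291) had reads in 5 cases, and none passed. On chromosome 2 reads were found for 8 of 11 members, of which 3 passed. Chromosome 14 had 3 members with reads, and all 3 passed. All 32 genes are annotated as protein-coding.

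**Figure D1:**
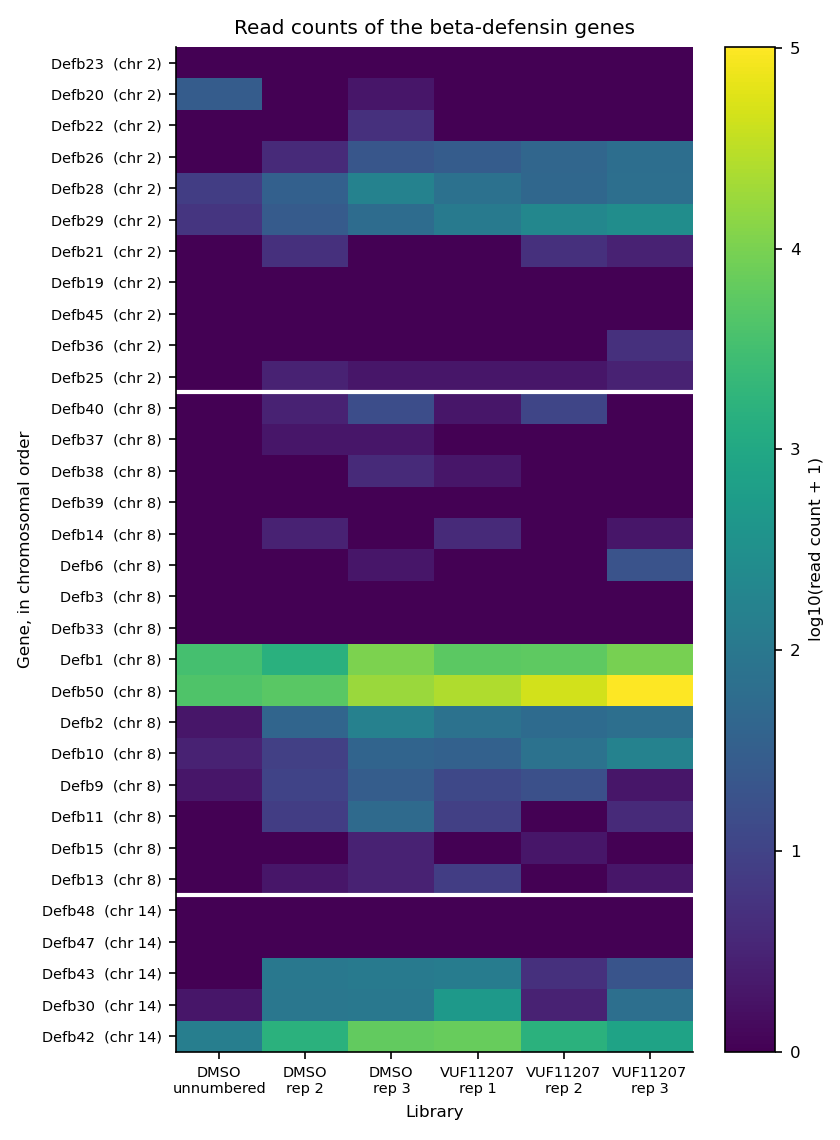
Read counts of the 32 beta-defensin genes, one row per gene in chromosomal order (white lines separate chromosomes 2, 8 and 14) and one column per library, coloured by log10 of the count plus 1. The rows of Defb1 and Defb50 are bright throughout, and that of Defb42 is dimmest in the unnumbered DMSO library. Most other rows are dark in that library, and many are dark in every library.

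Depth was 20308018 to 33368058 counts per library over all genes. Composition differed widely within both groups, and genes of the seminal vesicle, a neighbouring gland, took between 0.750% of all counts (unnumbered DMSO library) and 66.9% (DMSO replicate 2), with 28.7% in VUF11207 replicate 1. Levels are therefore given as CPM, reads of the gene brought to a common library size by the trimmed mean of M-values (TMM), in which 3 reads, taken as the detection floor, correspond to 0.0970 to 0.211 CPM. In whole tissue, fewer cells that make a transcript and less transcript per cell cannot be told apart.

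Defb50 and 2 other genes made up nearly the whole family signal. The summed beta-defensin level was 286, 617 and 1131 CPM in the unnumbered DMSO library and DMSO replicates 2 and 3, and 1306, 1795 and 3782 CPM in VUF11207 replicates 1, 2 and 3. Every VUF11207 library was above every DMSO library. Defb50, Defb1 and Defb42 together held 96.2% to 99.4% of the family's reads in each library. The remaining members summed to 1.63 CPM in the unnumbered DMSO library and to 15.4 to 32.7 CPM in the other 5.

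The library without a number was also the poorest in members. Reads of 10 members were found there, against 18 and 21 in DMSO replicates 2 and 3 and 17, 15 and 18 in the VUF11207 libraries, and 14 of the 24 detected members had no read in it. Among the 10 members that passed the filter, 9 were lowest in that library, and the exception was Defb1. Members with at least 10 reads numbered 4 there and 8 to 13 elsewhere. The same library had the lowest seminal vesicle share and the lowest summed epididymal marker level (10.99 CPM), whereas its summed level of 18 epithelial genes was 3198 CPM, near the 3266 to 4563 CPM of the others. The part of tissue composition in the low member count was not tested.

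Defb50 (ENSMUSG00000058568.6, chromosome 8, 21823539 to 21831296, plus strand) was the most abundant member in all 6 libraries. Its reads numbered 4236, 5327 and 17619 in the unnumbered DMSO library and DMSO replicates 2 and 3, and 25198, 45525 and 100923 in VUF11207 replicates 1 to 3. In CPM these were 157, 375 and 569 with DMSO and 852, 1528 and 3413 with VUF11207. The groups did not overlap, although the lowest VUF11207 library was nearer to the highest DMSO library than to the other VUF11207 libraries. The level spanned 21.8-fold between the extreme libraries.

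The place of Defb50 among all genes showed the same spread. By read count it ranked 594, 252 and 119 among the genes of the DMSO libraries and 75, 39 and 11 among those of the VUF11207 libraries. In VUF11207 replicate 3 it took 0.388% of all reads (Wilson 95% interval 0.386% to 0.391%), and in DMSO replicate 2 it took 0.0160% (0.0155% to 0.0164%). These intervals cover counting error only and are far narrower than the differences between libraries of 1 group. Depth was thus not the limit for this gene.

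Means were 367 ± 206 CPM with DMSO and 1931 ± 1327 CPM with VUF11207 (SD, n = 3 each), a ratio of 5.26. In the edgeR quasi-likelihood fit over 13753 genes the log2 fold change was 2.39 ± 0.70 (SE, 95% interval 0.72 to 4.07). After Benjamini-Hochberg adjustment over all genes edgeR gave an adjusted p of 0.9999, so Defb50 was not called. DESeq2 gave 2.41 ± 0.63 with an adjusted p of 0.221. The estimate was 1.70 without VUF11207 replicate 3, the library with most Defb50, and 2.86 without DMSO replicate 3.

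No member was called, and edgeR called no other gene tested. At an adjusted p under 0.05 edgeR called 0 of the 10 members tested and 0 of 13753 genes (0%). At an unadjusted p under 0.05 edgeR listed 2 members, Defb50 and Defb29, against 196 of all genes, or 1.43%. DESeq2 called 0 of the 10 members and 4 of 13636 genes, or 0.0293%. Every VUF11207 library was higher than every DMSO library for 3 of the 10 members (Defb50, Defb29 and Defb26) and for 3.05% of all genes tested. The reverse held for 0 members and 2.52% of genes. The 10 members are those with enough reads to test and do not stand for the family. Defb26 (0, 3 and 21 reads with DMSO) and Defb29 (5, 26 and 57) would not have passed the filter on their DMSO libraries alone. Their entry depended on the VUF11207 libraries, where they were high, so the shares of members are not independent of that level. With 3 libraries against 3, an exact permutation test of a single gene cannot give a p below 0.1.

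**Figure D2:**
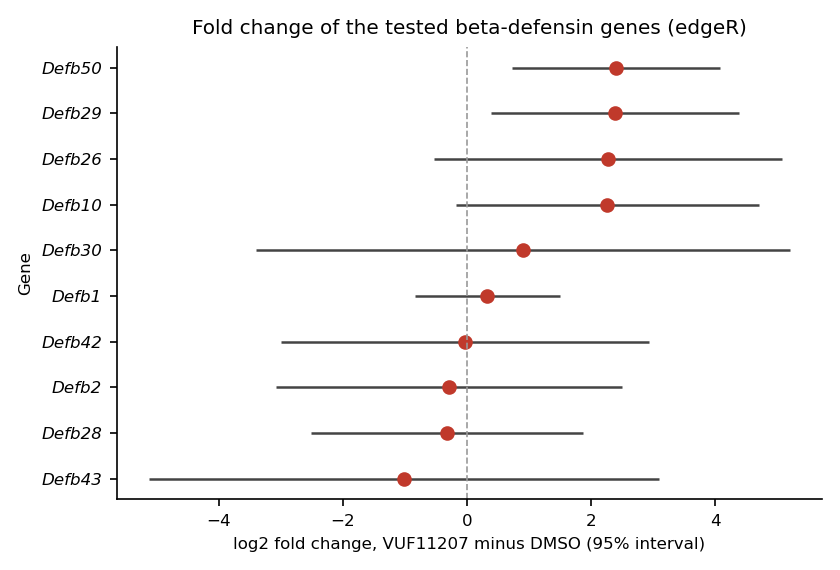
Log2 fold change of the 10 beta-defensin genes tested (VUF11207 minus DMSO, edgeR, 3 libraries per group), with points for estimates and lines for unadjusted 95% intervals. The intervals of Defb50 and Defb29 lie above 0, those of the other 8 members include 0, and no member passed the adjusted threshold.

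Defb1 (ENSMUSG00000044748.8, chromosome 8, 21776599 to 21795185, plus strand) is the mouse counterpart of human beta-defensin 1, a constitutive peptide of kidney and other epithelia. It had 3301, 1526 and 10313 reads with DMSO and 5609, 5900 and 9375 reads with VUF11207. The corresponding levels were 122, 108 and 333 CPM with DMSO and 189.6, 198 and 317 CPM with VUF11207. The groups overlapped, since DMSO replicate 3 was the highest library of all, while the unnumbered DMSO library and DMSO replicate 2 were below every VUF11207 library. The edgeR log2 fold change was 0.32 ± 0.49 (95% interval -0.85 to 1.49, adjusted p 0.9999), and the estimate was 1.04 without DMSO replicate 3. Defb1 was the steadiest tested member, with 3.10-fold between the extreme libraries.

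The weight of Defb50 relative to Defb1 and the rest of the family varied from library to library. Defb50 held 54.9%, 60.8% and 50.3% of the family's reads with DMSO and 65.2%, 85.1% and 90.2% with VUF11207. Per kilobase of exon, which allows levels of different genes to be set side by side, Defb50 averaged 3080 CPM per kb over the 6 libraries and Defb1 averaged 242 CPM per kb. In the unnumbered DMSO library the values were 420 and 140 CPM per kb, and in VUF11207 replicate 3 they were 9150 and 364 CPM per kb. The order of these 2 genes was the same in every library.

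Defb2, Defb10, Defb9 and Defb11 lie beside Defb50 on chromosome 8, and Defb2 is known as a lipopolysaccharide-inducible peptide of the airway. Their transcripts share stretches of 50 bases, which cover 20.7% of such stretches in Defb2, 16.9% in Defb10, 19.8% in Defb11 and 9.96% in Defb9. Reads from those stretches cannot be assigned to 1 of the 4 with certainty, so their values are uncertain. No such stretch of Defb50 or Defb1 was shared with another gene.

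Defb10 (chromosome 8, 21858901 to 21862011, plus strand) had 2, 8 and 40 reads with DMSO and 35, 76 and 167 reads with VUF11207. In CPM it was at 0.0740, 0.564 and 1.29 with DMSO and at 1.18, 2.55 and 5.65 with VUF11207. The groups overlapped, because DMSO replicate 3 exceeded VUF11207 replicate 1. edgeR gave a log2 fold change of 2.26 ± 1.03 (95% interval -0.19 to 4.71, adjusted p 0.9999). Defb2 (chromosome 8, 21839926 to 21843482, plus strand) had another profile, with 1, 41 and 157 reads under DMSO and 75, 54 and 65 reads under VUF11207. Its mean was 2.67 ± 2.53 CPM with DMSO and 2.18 ± 0.362 CPM with VUF11207 (SD, n = 3 each), with the highest and the lowest library both in the DMSO group. The edgeR log2 fold change of Defb2 was -0.29 ± 1.17 (adjusted p 0.9999), and it was 0.61 without DMSO replicate 3.

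Defb11, Defb9 and Defb13 were below the filter. Defb11 had 70 reads in all, of which 52 came from DMSO replicate 3, and it had none in the unnumbered DMSO library and VUF11207 replicate 2. Defb9 had 1, 9 and 29 reads with DMSO and 11, 16 and 1 reads with VUF11207, so that both groups held a library at 1 read. Defb13, at the end of the cluster, had at most 7 reads in a library. Defb15, an epididymal gene whose transcript overlaps an antisense gene in 37.2% of its 50-base stretches, had 3 reads in all.

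On chromosome 2, Defb29 and Defb26 had the library order of Defb50, from the unnumbered DMSO library upward through DMSO replicates 2 and 3 to VUF11207 replicates 1, 2 and 3. Defb29 (chromosome 2, 152538714 to 152540098, minus strand), a peptide described as attracting dendritic cell precursors, had 5, 26 and 57 reads with DMSO and 112, 203 and 281 reads with VUF11207. Its levels were 0.185, 1.83 and 1.84 CPM with DMSO and 3.79, 6.81 and 9.50 CPM with VUF11207, without overlap. Defb29 averaged 1.29 ± 0.954 CPM with DMSO and 6.70 ± 2.86 CPM with VUF11207 (SD, n = 3 each). In edgeR its log2 fold change was 2.39 ± 0.84 (95% interval 0.39 to 4.38, adjusted p 0.9999).

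Defb26 (chromosome 2, 152507798 to 152511692, minus strand), an epididymal member associated with sperm maturation, was rarer. It had 0, 3 and 21 reads with DMSO and 27, 43 and 62 reads with VUF11207. Levels were 0, 0.211 and 0.679 CPM with DMSO and 0.913, 1.44 and 2.10 CPM with VUF11207. The groups did not overlap, but the gap between the nearest libraries was 0.679 against 0.913 CPM. The edgeR log2 fold change was 2.27 ± 1.18 (95% interval -0.53 to 5.07, adjusted p 0.9999). Defb28, their neighbour (chromosome 2, 152518255 to 152521447, plus strand), had 7, 33 and 162 reads with DMSO and 74, 46 and 65 reads with VUF11207. Its groups overlapped, at 2.61 ± 2.5 and 2.08 ± 0.490 CPM (SD, n = 3 each), with an edgeR log2 fold change of -0.33 ± 0.92 and an adjusted p of 0.9999. Without DMSO replicate 3 the Defb28 estimate was 0.71.

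**Figure D3:**
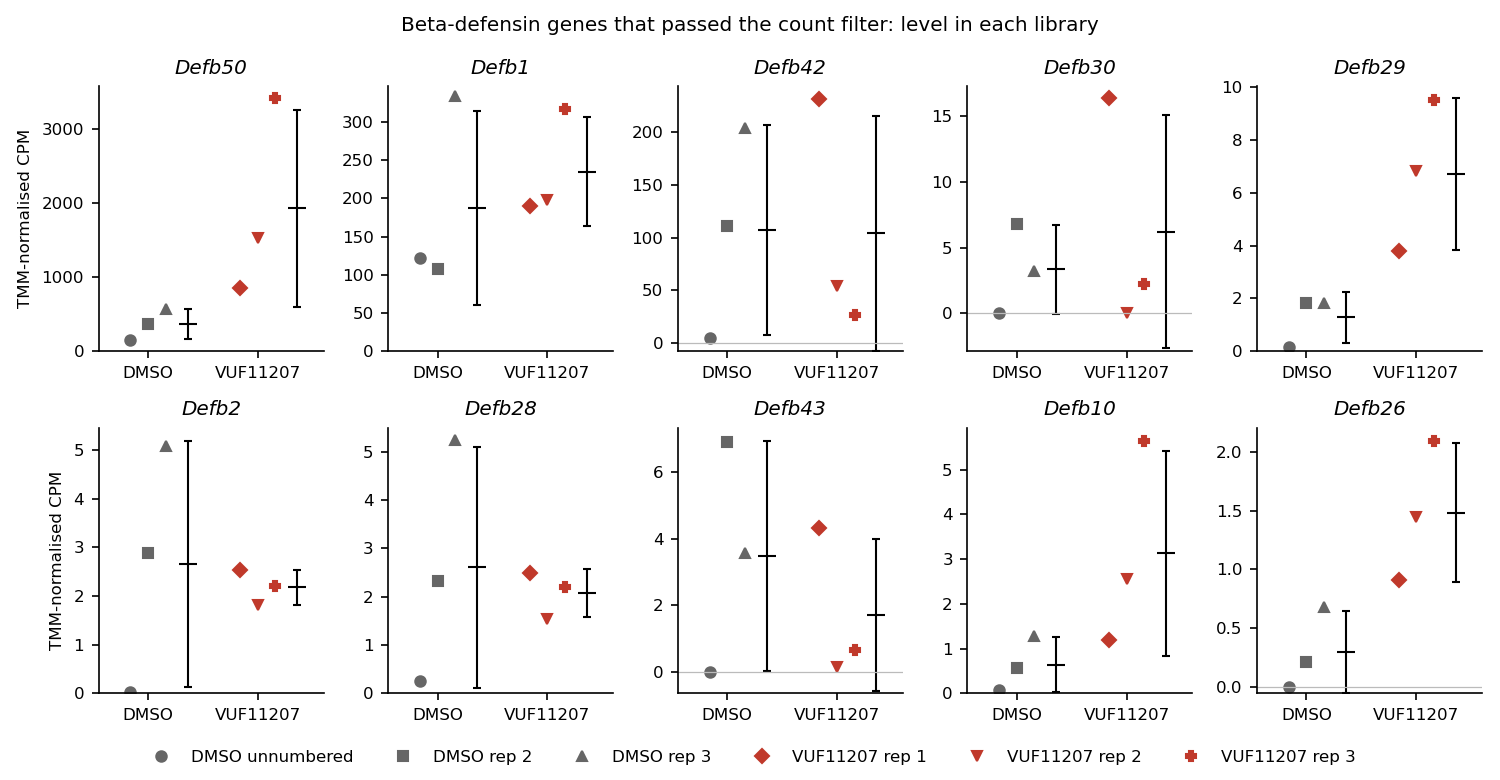
TMM-normalised CPM of the 10 beta-defensin genes tested in each of the 6 libraries, one panel per gene with its own linear axis, grey symbols for DMSO and red for VUF11207; the horizontal ticks are means and the bars are SD (n = 3). Defb50, Defb29 and Defb26 have all VUF11207 symbols above the DMSO symbols, and the 3 chromosome 14 genes have wide, overlapping groups.

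The other chromosome 2 members gave few reads. Defb20 had 28 reads, of which 27 came from the unnumbered DMSO library and 1 from DMSO replicate 3. It was the single member with most of its reads in that library, and in an edgeR fit without a count filter it was the 1 member of the 14 low ones with an unadjusted p under 0.05, against 1.37% of all genes in that fit, and adjustment over all genes removed it. Defb21 had 10 reads in 3 libraries. Defb25 had 7 reads spread over all libraries except the unnumbered one. Defb22, whose product belongs to the sugar-rich coat of sperm, had 4 reads, all from DMSO replicate 3, and Defb36 had 4 reads, all from VUF11207 replicate 3.

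The 3 expressed members of chromosome 14 had a different pattern, high in DMSO replicates 2 and 3 and in VUF11207 replicate 1. Defb42 (ENSMUSG00000054763.9, chromosome 14, 63046991 to 63058149, plus strand), a peptide of the epididymal epithelium, had 139, 1577 and 6323 reads with DMSO and 6864, 1599 and 797 reads with VUF11207. In CPM these were 5.14, 111 and 204 with DMSO and 232, 53.7 and 27 with VUF11207. The libraries spanned 45.1-fold and the groups overlapped fully, with means of 107 ± 99.7 and 104 ± 112 CPM (SD, n = 3 each). The edgeR log2 fold change was -0.04 ± 1.24 (95% interval -3.00 to 2.93, adjusted p 0.9999), an interval too wide to tell a strong change in either direction from none. With 1 library left out at a time the estimate ran from -1.40 (without VUF11207 replicate 1) to 0.84 (without DMSO replicate 3). It was also -0.60 without the unnumbered DMSO library, 0.28 without VUF11207 replicate 2 and 0.42 without VUF11207 replicate 3.

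Defb30 (chromosome 14, 63034087 to 63049960, minus strand) overlaps Defb42 on the opposite strand, and no source used here says whether counting used strand, so reads of the shared span are uncertain for both. Defb30 had 1, 97 and 99 reads with DMSO and 484, 2 and 66 reads with VUF11207. Defb43 (chromosome 14, 63011771 to 63018088, plus strand) had 0, 98 and 110 reads with DMSO and 128, 4 and 19 reads with VUF11207. Both genes were thus near the floor in the unnumbered DMSO library and in VUF11207 replicate 2. Their edgeR log2 fold changes were 0.90 ± 1.79 for Defb30 and -1.02 ± 1.72 for Defb43, each with an adjusted p of 0.9999. Without VUF11207 replicate 1 the Defb30 estimate was -1.52 and that of Defb43 was -3.13, and without DMSO replicate 2 they were 1.94 and -0.06.

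Epididymal markers were set beside these genes, since Defb42 and many of its relatives are known from that organ. Of a list of 25 epididymal genes 19 were in the table, 15 had reads and 6 were tested, of which 0 were called, 1 had a positive and 5 a negative log2 fold change (median -0.50, against -0.04 over all genes). Crisp1, which encodes a sperm-coating protein, was at 3.70, 634 and 645 CPM with DMSO and at 756, 8.22 and 163 CPM with VUF11207. Wfdc10, a whey acidic protein domain gene, was at 0.222, 8.38 and 13.3 CPM with DMSO and at 3.58, 0.302 and 1.35 CPM with VUF11207. The libraries rich in Crisp1 were those rich in Defb42, Defb43 and Defb30. The list's summed level was 10.99 to 665 CPM with DMSO and 14.5 to 766 CPM with VUF11207. The list did not vary as 1 block. Adam28, a membrane metalloprotease gene, was at 2.85, 0.282 and 1.29 CPM with DMSO and 1.49, 2.05 and 3.21 CPM with VUF11207. Eppin, which encodes a sperm-surface protease inhibitor, was at 4.22, 0.916 and 0.291 CPM with DMSO and 0.609, 3.83 and 0.778 CPM with VUF11207. Both were thus higher in the unnumbered DMSO library than in DMSO replicates 2 and 3, unlike Crisp1. Lcn5 and Wfdc9 had 124 and 177 reads and Gpx5 had 3, while Lcn8, Cst8, Spag11a and Spag11b had none. These 7 genes were singled out after their values were seen. Reads of Lcn5 numbered 0, 45 and 10 with DMSO and 62, 0 and 7 with VUF11207. Those of Wfdc9 numbered 0, 17 and 136 with DMSO and 20, 2 and 2 with VUF11207. Unlike Adam28 and Eppin, both had most reads in DMSO replicates 2 and 3 and VUF11207 replicate 1, the libraries richest in Crisp1. The part of epididymal tissue in the Defb42 pattern was not tested.

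Seminal vesicle genes were highest in DMSO replicate 2, followed by VUF11207 replicate 1 for all 11 members of the list. All 11 genes of that list were tested and 0 were called, although all 11 had negative estimates (median -2.82). Svs2, a secreted protein of the copulatory plug, was at 1782, 356183 and 80929 CPM with DMSO and 100464, 13090.0 and 7852 CPM with VUF11207. Svs5, another secretory protein of that gland, was at 1566, 378396 and 32762 CPM with DMSO and 69250.2, 6742 and 11981 CPM with VUF11207. Members differed in DMSO replicate 3, where Svs1 was at 199 CPM against 452 CPM in the unnumbered DMSO library, unlike Svs2, Svs5 and Defb42. Defb50 had another order again, since DMSO replicate 2, first in Svs2, was below 4 other libraries in Defb50. Without the 2 libraries richest in seminal vesicle reads (DMSO replicate 2 and VUF11207 replicate 1), an alternative chosen after seeing the data, the Defb50 log2 fold change was 2.78.

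The tested members therefore fell into unlike profiles over the 6 libraries. Pearson's r of log2 CPM with Defb50 was 0.98 for Defb10, 0.95 for Defb26 and 0.95 for Defb29. It was 0.69 for Defb1 and 0.25, 0.19 and 0.09 for Defb42, Defb30 and Defb43. Among the latter 3, r was 0.94 between Defb30 and Defb43, 0.88 between Defb42 and Defb43 and 0.77 between Defb30 and Defb42. Defb42 also had r of 0.89 with Defb2 and with Defb28, so its profile was not confined to chromosome 14. Defb2 and Defb28, which lie on different chromosomes, had r of 0.98 with each other. These values are descriptions over 6 points that share group, depth and composition, and they carry no test.

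**Figure D4:**
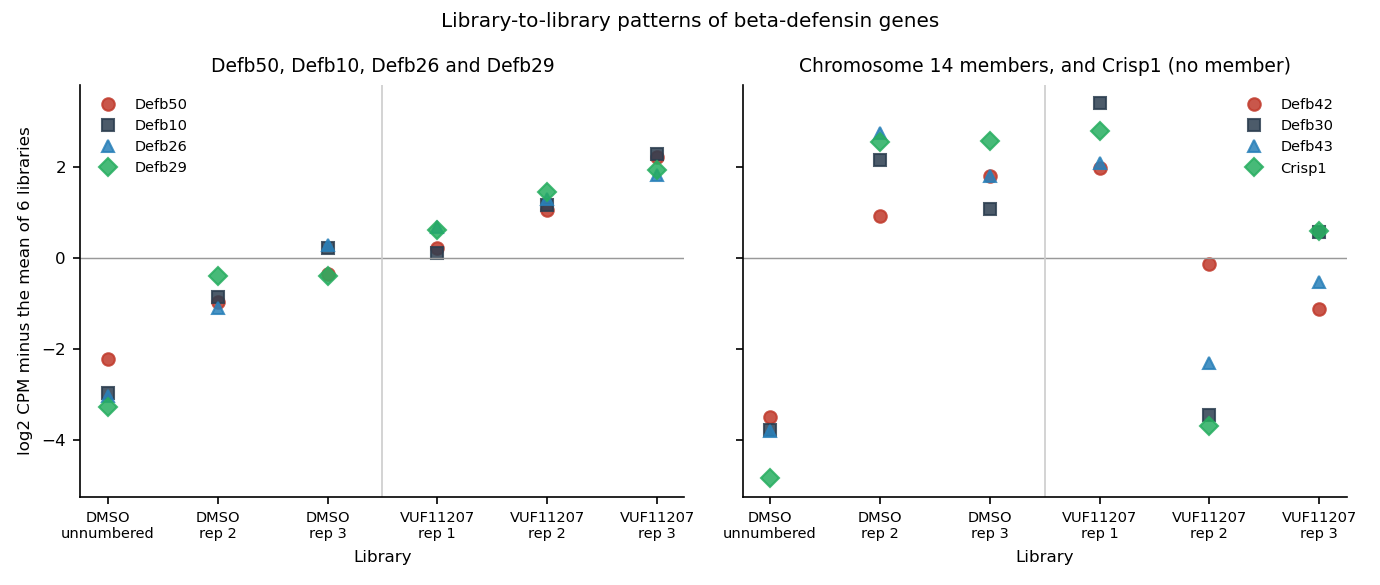
Log2 CPM of beta-defensin genes in each library after subtraction of the gene's mean over the 6 libraries, with Defb50, Defb10, Defb26 and Defb29 on the left and the chromosome 14 genes with the epididymal gene Crisp1 on the right. The left panel climbs from the unnumbered DMSO library to VUF11207 replicate 3. Defb10 departs from this in being slightly lower in VUF11207 replicate 1 than in DMSO replicate 3. The right panel is low in the unnumbered DMSO library and high in DMSO replicates 2 and 3 and VUF11207 replicate 1. In VUF11207 replicate 2 Defb30, Defb43 and Crisp1 are low too, whereas Defb42 is higher there than in VUF11207 replicate 3.

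Because Defb10, Defb26 and Defb29 varied with Defb50 over the libraries, the 250 bases before their annotated starts are shown, taken from RefSeq promoters of GRCm38.p6. Each is written 5′ to 3′ on the gene's strand, with AGAACA or its reverse complement TGTTCT in capitals, the half-site to which androgen and glucocorticoid receptors bind.
Defb10 (chr8:21858651-21858900, plus strand): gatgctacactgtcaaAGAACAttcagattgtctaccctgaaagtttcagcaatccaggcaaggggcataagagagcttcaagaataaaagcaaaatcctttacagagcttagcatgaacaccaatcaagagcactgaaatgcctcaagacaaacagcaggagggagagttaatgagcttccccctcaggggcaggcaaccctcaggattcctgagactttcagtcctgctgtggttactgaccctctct
Defb26 (chr2:152511737-152511986, minus strand): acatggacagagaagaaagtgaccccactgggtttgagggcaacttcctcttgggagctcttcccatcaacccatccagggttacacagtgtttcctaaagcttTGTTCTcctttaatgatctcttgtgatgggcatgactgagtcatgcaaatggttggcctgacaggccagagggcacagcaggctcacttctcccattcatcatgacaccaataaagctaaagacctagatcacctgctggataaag
Defb29 (chr2:152540042-152540291, minus strand): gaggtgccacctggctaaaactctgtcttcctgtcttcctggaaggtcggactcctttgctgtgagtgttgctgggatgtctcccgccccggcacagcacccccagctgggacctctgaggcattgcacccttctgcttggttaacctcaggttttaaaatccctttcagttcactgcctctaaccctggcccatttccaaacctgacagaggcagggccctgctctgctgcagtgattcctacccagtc
AGAACA was present on either strand in Defb10 and Defb26 and absent from this window of Defb29. The RefSeq starts of Defb26 and Defb29 differ from the GENCODE positions given above, and part of the Defb29 window lies within its GENCODE span. Promoter entries were matched for 24 of the 32 members and for 7 of the 10 tested, the unmatched tested ones being Defb50, Defb1 and Defb2. AGAACA lay in 11 of the 24 and 4 of the 7, against 16.1% of 32851 promoters of the same length. The 4 were Defb10, Defb26, Defb30 and Defb43. It was thus not particular to members that varied with Defb50, since r with Defb50 was 0.19 for Defb30 and 0.09 for Defb43. The TATA sequence TATAAA lay in 4 of the 24 and 1 of the 7 (Defb30), against 12.4% of all promoters. A match is a description of the letters and not a binding site.

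Prostate secretory genes were compared with Defb50, since that gene is known from the prostate. All 9 genes of the list were tested, 0 were called, 6 had positive and 3 negative estimates, and the median log2 fold change was 1.18. For 4 of the 9 (Msmb, Wfdc3, Azgp1 and Apof) every VUF11207 library was above every DMSO library, as for 3.05% of all genes tested. The same 4 had an unadjusted edgeR p under 0.05, against 1.43% of all genes. Apof had the smallest p of the list, with a log2 fold change of 1.45 ± 0.25 and an adjusted p of 0.9999. These 4 genes were singled out after their values were seen. The list was drawn up with earlier results of these data known, so its shares are not independent of them. The summed level of all 9 genes was 40460 to 77599 CPM with DMSO and 82694 to 190937 CPM with VUF11207, and did not overlap between the groups. Without Sbp, the most abundant gene of the list, the sum was 36749.7, 18828 and 10741 CPM with DMSO and 16468, 43072 and 47744 CPM with VUF11207, which overlapped (a split chosen after seeing the data). Sbp, which encodes spermine-binding protein, was at 3710, 50372 and 66858 CPM with DMSO and 66225, 64894 and 143193 CPM with VUF11207. Spink1, a secreted trypsin inhibitor, was at 1242, 16822 and 8345 CPM with DMSO and 14277, 26142 and 39129 CPM with VUF11207. Pbsn, which encodes probasin, and Tgm4, the prostate transglutaminase, had the opposite extreme: in the unnumbered DMSO library they were at 17695 and 16902 CPM, and in the other DMSO libraries at 955 CPM or less. In the VUF11207 libraries Pbsn was at 623, 6739 and 2652 CPM and Tgm4 at 624, 8518 and 1646 CPM. The part of secretory content in the Defb50 values was not tested.

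Epithelial content was read from 18 epithelial genes, of which 0 were called, 11 had positive and 7 negative estimates, and the median log2 fold change was 0.06. Krt18, a keratin of luminal epithelium, was at 727, 657 and 604 CPM with DMSO and 542, 629 and 663 CPM with VUF11207. Hoxb13, a transcription factor of the prostate, was at 378, 182 and 348 CPM with DMSO and 384, 533 and 805 CPM with VUF11207, with an edgeR log2 fold change of 0.92 ± 0.41 and an adjusted p of 0.9999. The ratio of Defb50 reads to those of Krt18 was 0.216, 0.571 and 0.942 with DMSO and 1.57, 2.43 and 5.14 with VUF11207. With Epcam, a surface protein of epithelial cells, as denominator the ratio was 0.617, 1.55 and 1.74 with DMSO and 3.09, 5.10 and 9.36 with VUF11207. These denominators were chosen after their values were seen, and the order of the libraries was that of Defb50 CPM with either.

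The genes most like Defb50 across the libraries were ranked by Pearson's r of log2 CPM among 11201 genes with enough signal. Among the first 10 were Rtp4, Akr1b8, Mboat2, Taf9b, Mvd, Ift57, Dnajb4, Msmb and Cyp4v3, with r from 0.998 down to 0.978 over 6 libraries. Rtp4, an interferon-inducible chaperone of receptor transport, was at 9.25, 12.9 and 13.9 CPM with DMSO and 17.0, 21.1 and 27.2 CPM with VUF11207, a narrower span than that of Defb50. Msmb, which encodes the prostate secretory protein beta-microseminoprotein, was at 40.6, 284 and 361 CPM with DMSO and 472, 887 and 2986 CPM with VUF11207. The edgeR log2 fold change of Msmb was 2.66 ± 0.99 with an adjusted p of 0.9999. None of these genes was called.

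Signals that act upstream of beta-defensins, and their receptor, were covered by a list of 23 genes (interleukin-17 and interleukin-22 signalling, Toll-like receptors, NF-kappaB, Ccr6 and Ccl20). Of these 21 were in the table, 20 had reads and 17 were tested. edgeR called 0, 11 estimates were positive and 6 negative, and the median was 0.06. Traf3ip2, the adaptor of interleukin-17 receptors, was at 46.7, 50.7 and 64.7 CPM with DMSO and 64.6, 67.7 and 110.1 CPM with VUF11207, with an edgeR log2 fold change of 0.58 ± 0.27 and an adjusted p of 0.9999. Il17re, the epithelial receptor for interleukin-17C, was at 22.8, 39.1 and 42.0 CPM with DMSO and 43.3, 41.0 and 74.5 CPM with VUF11207. Ccr6, the beta-defensin receptor, had 20 reads and its chemokine Ccl20 had 38 reads over the 6 libraries, 2 genes singled out after their values were seen. Neither was deep enough to test.

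Of 20 other antimicrobial genes 19 had reads and 14 were tested, of which 0 were called, 4 had positive and 10 negative estimates (median -0.51), and 0 had groups without overlap. Pigr, which carries antibodies across epithelia, was at 43.9, 290.0 and 783 CPM with DMSO and 470.3, 449.9 and 623 CPM with VUF11207. Lcn2, an iron-scavenging protein of inflamed epithelium, was at 9.66, 73.9 and 145 CPM with DMSO and 100.1, 28.8 and 38.8 CPM with VUF11207. Lyz2, a lysozyme of macrophages and neutrophils, was at 215, 44.6 and 85.2 CPM with DMSO and 48.1, 109 and 43.8 CPM with VUF11207. None of the 3 shared the library order of Defb50.

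Markers of other cells that such a specimen can hold are given beside the family. Of 10 neutrophil markers 3 were tested and 0 called, and their summed level was 4.43 to 14.5 CPM with DMSO and 0.575 to 3.42 CPM with VUF11207. Among them S100a9, a neutrophil calcium-binding protein, was at 8.03, 4.23 and 1.81 CPM with DMSO and 0.169, 0.973 and 0.0338 CPM with VUF11207, with an edgeR log2 fold change of -3.56 ± 1.16 and an adjusted p of 0.9999. S100a8, its partner, was at 3.997, 3.10 and 1.13 CPM with DMSO and 0.372, 0.436 and 0.203 CPM with VUF11207 (edgeR log2 fold change -3.00 ± 0.69, adjusted p 0.9999). Of the 3 tested markers 2 had every VUF11207 library below every DMSO library, as for 2.52% of all genes tested. Csf3r, the other one tested, overlapped, at 1.78, 0.211 and 0.776 CPM with DMSO and 0.338, 1.24 and 0.237 CPM with VUF11207. Mpo and Elane, too low to test and singled out after their values were seen, had higher means with VUF11207. Ngp, Retnlg, Fpr1 and Cxcr2, also too low to test, had lower means with VUF11207, and Ly6g had no reads. The S100a9 and S100a8 levels ran opposite to those of Defb50 between the groups. Of 10 T cell markers 7 were tested and 0 called, with summed levels of 5.71 to 19.9 CPM with DMSO and 6.12 to 22.5 CPM with VUF11207. Cd3g and Cd4, which encode parts of the T cell receptor complex and the helper co-receptor, were each below 10 CPM in every library. Of 10 skeletal muscle markers all 10 were tested and 0 called, with 419 to 5519 CPM with DMSO and 615 to 5876 CPM with VUF11207. Acta1, skeletal actin, was at 306 to 1643 CPM and Ckm, muscle creatine kinase, at 29.4 to 1016 CPM over the 6 libraries. Of 6 urothelial markers 3 were tested and 0 called, with 58.0 to 235 CPM with DMSO and 129 to 429.8 CPM with VUF11207. Upk1a and Upk1b, plaque proteins of the bladder lining, were at 9.95 to 412 CPM and 8.93 to 44.6 CPM. The part of these cells in the beta-defensin values was not tested.

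The remaining members were rare or not detected. In the Defb40 to Defb3 group of chromosome 8, Defb40 had 27 reads, of which 14 came from DMSO replicate 3 and 10 from VUF11207 replicate 2, and Defb6, known from muscle and tongue, had 19 reads, of which 18 came from VUF11207 replicate 3. Defb14, the counterpart of human beta-defensin 3, had 6 reads, Defb38 had 4 and Defb37 had 2. Defb3, an inducible member often likened to human beta-defensin 2, had none. No read was counted either for Defb19, Defb23, Defb33, Defb39, Defb45, Defb47 or Defb48. For such a gene a count of 0 allows up to 3 reads per library, which is 0.0970 to 0.211 CPM.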

How the data were processed

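The submitters' processing notes name the mouse build mm10 and the tools fastp, HISAT2 and HTSeq, without versions. Annotation, strand setting and the rule for reads that fit several genes were not given in the sources used here. The deposited file gives raw read counts, as whole numbers, for 18697 gene symbols, of which 1219 were 0 in every library. Libraries were grouped by their labels. The DMSO column whose name matched no sample's own file entered its group without a replicate number. Each pair of libraries differed by more than sampling noise, with a chi-square over genes of at least 236 per degree of freedom.

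Counts were scaled by TMM and filtered with filterByExpr, which tests a gene with about 10 counts in at least 3 libraries and left 13753 genes. The test of VUF11207 against DMSO was the robust quasi-likelihood test of edgeR 4.0.16, two-sided, adjusted by Benjamini-Hochberg over all genes, at a threshold of 0.05. Correlations used log2 CPM with a prior count of 2. The fit was tested on simulated data. Depth was 20308018 to 33368058 counts per library.

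The members, lists and tests were chosen with earlier results of these data known. The text names Defb50, every member with reads, the 10 genes most like Defb50 (average log2 CPM of at least 1, without Gm, Rik and LOC names), and 2 to 4 genes with the highest mean CPM of a list. For 1 gene covered by this rule no result is given. For other genes the text states that they were singled out with their values in view. Alternatives were DESeq2 1.42.0, limma voom 3.58.1, RLE or total scaling, other count filters, a replicate block and leaving out libraries. Positions, exon lengths and coding sequences are from GENCODE M21, and all 32 members were found there. R 4.3.3 and Python 3.11.15 were used.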

Additional observations from a re-analysis of the deposited data

How the results depend on the processing

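The Defb50 log2 fold change was positive and not called under each alternative, at 2.41 with DESeq2, 2.34 with limma voom, 2.41 with RLE scaling, 2.64 with library totals alone, 2.41 without a count filter and 2.40 on genes with at least 10 counts in at least 3 libraries. Under these settings 0 beta-defensin genes were called. The count of all genes called was 0 in the main analysis, 4 with DESeq2 and 3 with library totals alone. With totals alone the median over all genes was 0.14, against -0.04. Leaving out each library in turn gave 1.70 to 2.86 for Defb50, 1.87 to 2.78 for Defb29, 1.68 to 3.98 for Defb26, 1.52 to 3.37 for Defb10, 0.05 to 1.04 for Defb1, -0.87 to 0.61 for Defb2, -0.87 to 0.71 for Defb28, -1.52 to 1.94 for Defb30, -1.40 to 0.84 for Defb42 and -3.13 to -0.06 for Defb43, with 0 genes called each time.

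The sign of 5 tested members (Defb2, Defb28, Defb30, Defb42 and Defb43) and 2 untested ones (Defb21 and Defb25) depended on the setting, and the cause was not tested. limma voom gave 1.34 for Defb2, 0.47 for Defb28, 0.53 for Defb42 and 0.30 for Defb43, and totals alone gave 0.12 for Defb42. In the fit without a count filter, totals alone gave 0.82 for Defb21 and 0.48 for Defb25, against -0.23 and -0.14. Without DMSO replicate 2 and VUF11207 replicate 1 Defb30 was at -0.48.

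The replicate block could be fitted on replicates 2 and 3 of each group. It gave 2.32 for Defb50, -3.00 for Defb30, -1.97 for Defb42 and -3.87 for Defb43, none called, and the same 4 libraries without a block gave 2.40, -2.10, -1.96 and -3.72. With and without the block, members with an unadjusted edgeR p under 0.05 were Defb50, Defb29 and Defb10, with positive estimates, and Defb42 and Defb43, with negative ones. Genes with an unadjusted edgeR p under 0.05 numbered 834 with the block (6.06% of all tested) and 833 without it. Deviations of same-numbered libraries correlated at -0.33 and 0.05. So few pairs cannot decide whether such libraries share anything beyond the number.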
